A study of Homo sapiens with 15 samples.

Results

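The angiomotins AMOT, AMOTL1 and AMOTL2 and 7 genes of the Hippo-YAP pathway were followed across RNA-seq libraries of human HEK293-derived cells, an established line from embryonic kidney. The 10 genes are AMOT, AMOTL1, AMOTL2, YAP1, WWTR1, TEAD1, LATS1, LATS2, CTGF and CYR61, taken by name from a table of 55773 genes, in which CTGF and CYR61 stand under their older symbols (now CCN2 and CCN1). The genes were chosen by name with earlier results of these data in view, among them the high AMOT counts of the ZC3H7A libraries against the control; which values, if any, led to the choice of each other gene is not recorded. Comparisons that contain the ZC3H7A libraries are therefore described without p-values for these 10 genes, and so is AMOT with ZC3H7B, which shares the control libraries. The p-values given for them elsewhere are adjusted over all tested genes and may not be independent of the choice.

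The study profiled RNA after gain and after loss of ZC3H7A and ZC3H7B, CCCH zinc-finger proteins that bind RNA. There were 15 libraries in 5 groups of 3. A group overexpressed Flag/HA-tagged ZC3H7A, another Flag/HA-tagged ZC3H7B, and the control the Flag/HA tag alone; all 3 groups received doxycycline, given at 1 µg/mL for 24 h to induce the tagged proteins. The labels name both HEK293 and Flp-In T-REx 293, a derivative for inducible transgenes, without tying either to a group. Cells labelled DD combined a ZC3H7A knockout with an shRNA against ZC3H7B, and cells labelled Parental were wild type with a control shRNA; both were selected with puromycin at 5 µg/mL and released 2 passages before collection. The labels call the overexpression replicates independent but do not say whether a transgene or the knockout was carried by more than 1 clone, nor whether the DD and Parental samples were separate cultures, so p-values measure the spread between these samples.

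In the Hippo pathway, the kinases LATS1 and LATS2 phosphorylate the coactivators YAP (from YAP1) and TAZ (from WWTR1), which keeps them in the cytoplasm. Unphosphorylated YAP and TAZ enter the nucleus, bind TEAD transcription factors and turn on genes such as CTGF and CYR61, which encode secreted matricellular proteins. Angiomotins are junction and actin-associated scaffolds that bind YAP directly through PPxY motifs and also activate LATS kinases. AMOTL2 and LATS2 are themselves targets of YAP, which makes them part of a feedback loop. HEK293 cells are widely used to study this pathway.

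The binding motif of TEAD factors, GGAATG, was searched on both strands in the 250 bases before each gene's RefSeq start (GRCh38.p14), because CTGF and CYR61 are read below as targets of YAP and TEAD. Of the 10 genes, 8 had a promoter in the RefSeq table, and TEAD1 and CYR61 had none. CTGF held the motif 3 times, on the forward strand at positions -169, -104 and -95 from the start, and YAP1 held it at -162. In the promoters of AMOT, AMOTL1, AMOTL2, WWTR1, LATS1 and LATS2 these letters were not in the window. Among all 35116 RefSeq promoters of the same length, 11.9% held the motif at least once and 0.0826% at least 3 times. The 4 sequences below show CTGF and YAP1 with their matches in capitals, and AMOT and AMOTL2, the angiomotins with the largest differences in overexpression and depletion, for comparison. A match describes the letters and does not show a bound site.
CTGF, chr6:131951373-131951622, minus strand: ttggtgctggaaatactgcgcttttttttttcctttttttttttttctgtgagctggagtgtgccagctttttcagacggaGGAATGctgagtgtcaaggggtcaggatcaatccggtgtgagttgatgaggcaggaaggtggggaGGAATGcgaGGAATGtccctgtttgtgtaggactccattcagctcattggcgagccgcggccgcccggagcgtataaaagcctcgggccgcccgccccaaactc
YAP1, chr11:102110197-102110446, plus strand: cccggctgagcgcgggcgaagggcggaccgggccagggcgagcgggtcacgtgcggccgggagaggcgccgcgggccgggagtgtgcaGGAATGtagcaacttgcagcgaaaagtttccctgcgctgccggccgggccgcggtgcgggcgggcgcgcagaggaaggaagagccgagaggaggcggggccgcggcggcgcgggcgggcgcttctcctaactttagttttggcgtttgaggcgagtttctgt
AMOT, chrX:112840832-112841081, minus strand: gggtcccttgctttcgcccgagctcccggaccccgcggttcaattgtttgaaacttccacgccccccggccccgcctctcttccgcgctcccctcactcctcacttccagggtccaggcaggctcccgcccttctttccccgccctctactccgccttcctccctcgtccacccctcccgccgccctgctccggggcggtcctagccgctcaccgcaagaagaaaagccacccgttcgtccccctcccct
AMOTL2, chr3:134375418-134375667, minus strand: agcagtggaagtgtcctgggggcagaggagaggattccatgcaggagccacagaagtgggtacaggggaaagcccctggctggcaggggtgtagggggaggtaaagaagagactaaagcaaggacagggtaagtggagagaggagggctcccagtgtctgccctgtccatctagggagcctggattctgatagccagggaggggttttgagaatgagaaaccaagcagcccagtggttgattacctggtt

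The overexpression libraries held 45.5 to 57.6 M reads each, and the DD and Parental libraries 12.2 to 15.5 M. The 2 experiments used different library protocols, so levels are compared only within each. Values are read counts divided by a size factor per library, called normalized counts, and fold changes are log2 of the normalized count plus 1. The labels held for the targeted genes in the overexpressions and for ZC3H7B in DD, at 999.8 to 1168 in DD against 5948 to 6958 in Parental. ZC3H7A averaged 11192 in its own overexpression against 3259 in the control, and ZC3H7B averaged 27142 in its own against 5938. The other paralog differed too, with ZC3H7B at 7976 in the ZC3H7A group and ZC3H7A at 2032 in the ZC3H7B group. ZC3H7A, at 1561 to 1771 in DD and 1528 to 1684 in Parental, was not lower in the libraries labelled as its knockout, and gene-level reads do not show whether it still made protein. DD therefore stands below for the label, with lower ZC3H7B as the depletion these reads show. Of 8 genes known from HEK293 cells (NEFL, NEFM, INA, PAX2, LHX1, KRT8, KRT18 and VIM), all 8 reached 10 in each overexpression library and 7 did in each depletion library, NEFM being the one below. Their levels still differed between groups, in both directions. KRT8 averaged 412 in DD and 2955 in Parental, and INA 2094 and 1252. With ZC3H7A, INA averaged 2634 against 1175 in the control, and LHX1 119.8 against 259.4. Among markers of other cell types, summed levels lay between 6.54 and 29.5 in every library for endothelium (4 of 5 genes in the table, CDH5 at 0 in Parental) and between 155 and 308 for fibroblasts (DCN at 0 with ZC3H7A, with ZC3H7B and in DD). They were 25.3 to 110 for stratified epithelium, where KRT14 and KRT5 were at 0 in DD and Parental. Most of the fibroblast sum came from COL1A1, with group means from 146.9 in the control to 256.1 with ZC3H7B. COL3A1 averaged from 5.97 in the control to 44.55 in Parental. Most of the stratified epithelium sum came from SFN, with group means from 27.8 in DD to 105.9 with ZC3H7B. Of the leukocyte markers, CD3E and PTPRC were at 0 in DD and Parental and averaged under 1 in each overexpression group and the control. ITGAM averaged from 2.64 with ZC3H7A to 12.8 in the control, and CSF1R from 1.33 in DD to 6.60 in the control. The remaining leukocyte marker is not reported here. The part of these marker genes in the results was not tested. In RNA from whole cultures, fewer cells of a type and less RNA per cell cannot be told apart.

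AMOT was the member with the largest differences. With ZC3H7A its normalized count was 9909, 10051 and 9911, with ZC3H7B 2626, 2566 and 2518, and in the control 458, 419 and 399. The 3 groups lay far apart, with ZC3H7A highest, ZC3H7B between and the control lowest, and no libraries overlapped. The fold over the control was 23.4 with ZC3H7A (log2 fold change 4.55, SE 0.0506) and 6.04 with ZC3H7B (log2 fold change 2.59, SE 0.0506), and ZC3H7A stood 3.87-fold above ZC3H7B (log2 fold change 1.95, SE 0.0506). These folds rested on 50960 AMOT reads with ZC3H7A, 14987 with ZC3H7B and 2479 in the control. AMOT also encodes a shorter and a longer protein form, which gene-level counts do not separate.

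AMOT differed much less in the depletion experiment. DD libraries held 6315, 7131 and 5991 normalized counts, against 3466, 4400.5 and 5876 in Parental. The groups did not overlap, but the lowest DD library stood just above Parental replicate 3, and Parental had a coefficient of variation of 26.5% against 9.07% in DD. AMOT rose 1.44-fold in DD (log2 fold change 0.53 with an SE of 0.147 and adjusted p = 0.0178 in limma). The call was lost with DESeq2 (adjusted p = 0.121) and when DD replicate 1, DD replicate 2 or Parental replicate 2 was left out (limma adjusted p = 0.0621, 0.0743 and 0.0702). Without Parental replicate 1 the log2 fold change was 0.35 and without Parental replicate 3 it was 0.73, both called.

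**Figure D1:**
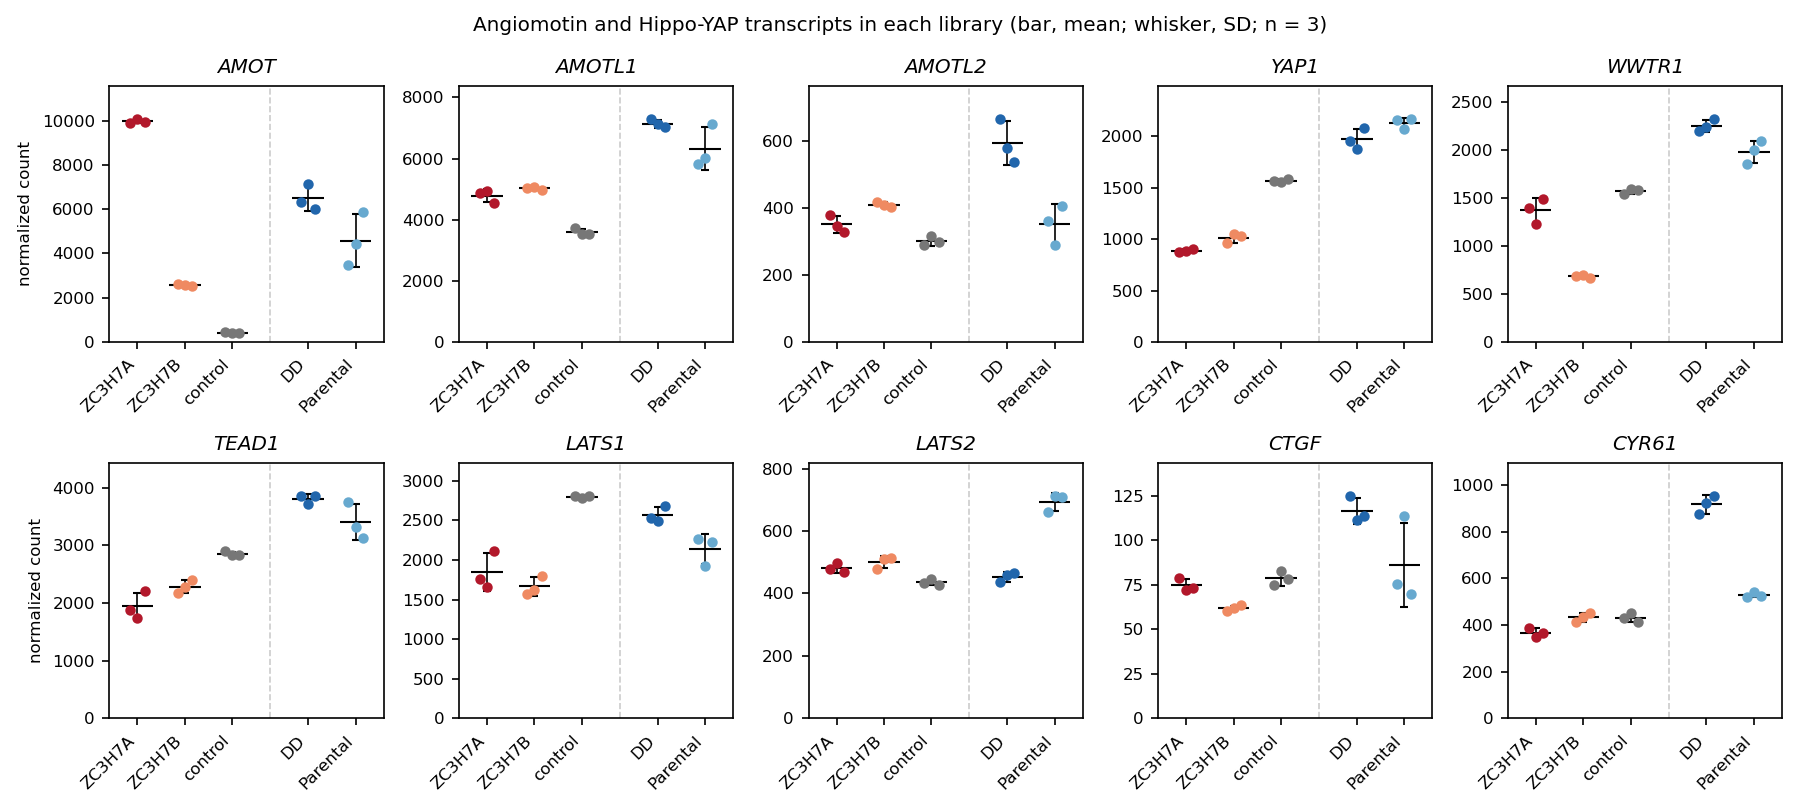
Normalized counts (vertical axes, each from 0) of the 10 genes in each of 15 libraries (points), with the mean (bar) and SD (whisker) of each group of 3; the dashed line separates the overexpression and depletion experiments, whose levels are not comparable. AMOT separates all 3 overexpression groups, WWTR1 is lowest with ZC3H7B, and CYR61 is higher in every DD library than in every Parental library.

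AMOTL1, a paralog of AMOT, differed less. With ZC3H7A it was 4870.2, 4936 and 4534, with ZC3H7B 5028, 5077 and 4958, and in the control 3721, 3521 and 3528. Both overexpressions lay wholly above the control. AMOTL1 rose 1.40-fold with ZC3H7B (log2 fold change 0.48 with an SE of 0.0431 and adjusted p = 1.18e-06 in limma), and its fold with ZC3H7A was 1.33 (log2 fold change 0.41, SE 0.0431). DD libraries held 7281, 7117 and 7020.6 AMOTL1 counts, against 5826, 6003 and 7141 in Parental. Parental replicate 3 lay above the 2 lower DD libraries, and the difference missed the threshold (log2 fold change 0.18, unadjusted 95% interval 0.0085 to 0.35, limma adjusted p = 0.107). Without that library it passed (log2 fold change 0.27, limma adjusted p = 6.56e-04).

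AMOTL2, the angiomotin that is also a YAP target, was 379, 346 and 329 with ZC3H7A, 419, 408 and 404 with ZC3H7B and 288, 316 and 298 in the control. Neither overexpression overlapped with the control. AMOTL2 rose 1.36-fold with ZC3H7B (log2 fold change 0.45 with an SE of 0.0659 and adjusted p = 6.92e-05 in limma), and the difference with ZC3H7A was 0.22 on the log2 scale (SE 0.0659). In DD it was 665, 580.4 and 537, against 359.7, 288 and 407 in Parental. All DD libraries stood above all Parental libraries, and AMOTL2 rose 1.70-fold (log2 fold change 0.76 with an SE of 0.136 and adjusted p = 0.0014 in limma).

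Levels of the 3 angiomotins were set side by side per kb of exon, with exon lengths of 8.502, 10.035 and 5.984 kb for AMOT, AMOTL1 and AMOTL2 in GENCODE 29. These lengths merge all annotated exons of a gene and are not those of the transcripts expressed here, so orders and shares depend on them. With ZC3H7A, AMOT was the most abundant at 1171 normalized counts per kb, above AMOTL1 at 476 and AMOTL2 at 58.7. With ZC3H7B, AMOTL1 led at 500.4 per kb, above AMOT at 302 and AMOTL2 at 68.5. In the control, AMOTL1 led at 358 per kb, and AMOT at 50.0 ± 3.55 and AMOTL2 at 50.3 ± 2.34 (SD, n = 3) did not differ beyond their spread. AMOT thus made up 68.0% to 69.7% of angiomotin counts per kb with ZC3H7A, 34.5% to 35.1% with ZC3H7B and 10.5% to 11.4% in the control. In the depletion experiment its share was 47.0% to 51.0% in DD and 38.9% to 47.0% in Parental. In DD, AMOT averaged 762 ± 69.1 per kb and AMOTL1 711 ± 13.1 (SD, n = 3 each), whereas in counts AMOT was lower, at 6479 against 7140.

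**Figure D2:**
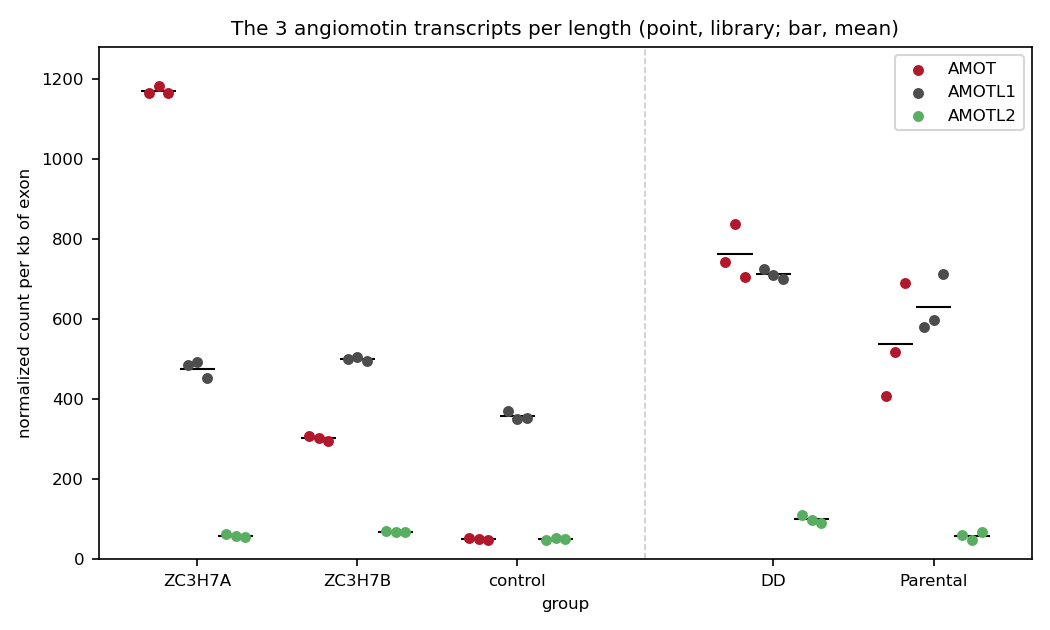
Normalized counts per kb of exon (vertical axis, from 0) of AMOT, AMOTL1 and AMOTL2 in each library (points) and their group means (bars), with the dashed line between the overexpression and depletion experiments. AMOT is at 1171 per kb with ZC3H7A, 302 with ZC3H7B and 50.0 in the control, while AMOTL1 lies between 358 and 500.4 in those groups.

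The coactivator genes YAP1 and WWTR1 were lower than the control in both overexpressions. YAP1 was 872, 883 and 904 with ZC3H7A, 959.9, 1053 and 1029.8 with ZC3H7B and 1565, 1556 and 1585 in the control. All overexpression libraries stood below all controls. YAP1 was at 0.565 of the control with ZC3H7A (log2 fold change -0.82, SE 0.0472) and fell to 0.646 of it with ZC3H7B (log2 fold change -0.63 with an SE of 0.0472 and adjusted p = 2.96e-07 in limma). In DD, YAP1 was 1954, 1874 and 2081, against 2156, 2073 and 2165 in Parental, with 1 DD library inside the Parental range. That difference missed the threshold (log2 fold change -0.11, 95% interval -0.27 to 0.038, limma adjusted p = 0.245).

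WWTR1, which encodes TAZ, was 1394, 1229 and 1486 with ZC3H7A, 682, 699 and 663 with ZC3H7B and 1540.2, 1591 and 1579 in the control. The ZC3H7B libraries were far below the rest, and the ZC3H7A libraries lay close under the control without overlapping it. WWTR1 fell to 0.434 of the control with ZC3H7B (log2 fold change -1.20 with an SE of 0.0631 and adjusted p = 2.28e-08 in limma), against 0.870 of it with ZC3H7A (log2 fold change -0.20, SE 0.0631). The direct comparison put WWTR1 2.00-fold higher with ZC3H7A than with ZC3H7B (log2 fold change 1.00, SE 0.0631), and YAP1 at 0.875 of its ZC3H7B level (log2 fold change -0.19, SE 0.0472). The count of YAP1 divided by that of WWTR1 was accordingly 0.609 to 0.719 with ZC3H7A, 1.41 to 1.55 with ZC3H7B and 0.978 to 1.02 in the control. In DD, WWTR1 was 2191, 2241 and 2317, against 1856, 1994 and 2089 in Parental. The groups did not overlap, but the difference missed the threshold (log2 fold change 0.19, 95% interval 0.03 to 0.34, limma adjusted p = 0.0702), and it passed without Parental replicate 3 (log2 fold change 0.23, limma adjusted p = 0.014). Antisense and intronic transcripts annotated within WWTR1 averaged at most 32.7 in any group (WWTR1-AS1 in DD), and the sources used here do not say whether counting used strand. Opposite-strand genes are annotated over every member but AMOT, AMOTL2 and CYR61. Those of WWTR1 and LATS2 have rows of their own (LATS2-AS1 averaged at most 0.18 in any group), while those of AMOTL1, YAP1, LATS1, CTGF and TEAD1 have no row of their name, and without strand their reads cannot be told apart from those of the member.

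TEAD1, which encodes the DNA-binding partner of YAP and TAZ, was 1877, 1748 and 2208 with ZC3H7A, 2171, 2280.2 and 2403 with ZC3H7B and 2899, 2828 and 2835 in the control. Both overexpressions were below the control, and they overlapped with each other. TEAD1 fell with ZC3H7B (log2 fold change -0.32 with an SE of 0.0726 and adjusted p = 0.00173 in limma), and its log2 fold change with ZC3H7A was -0.56 (SE 0.0726). In DD it was 3849.8, 3727 and 3859, against 3752, 3326 and 3135 in Parental. Parental replicate 1 lay within the DD range, and the difference did not pass (log2 fold change 0.17, 95% interval 0.0031 to 0.33, limma adjusted p = 0.117), but did without that library (log2 fold change 0.24, limma adjusted p = 0.0256).

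The 2 LATS kinase genes had opposite signs of change. LATS1 was 1760.0, 1660.2 and 2116 with ZC3H7A, 1573, 1627 and 1795 with ZC3H7B and 2808, 2784 and 2807 in the control. It lay well below the control in all 6 overexpression libraries. LATS1 fell to 0.594 of the control with ZC3H7B (log2 fold change -0.75 with an SE of 0.0785 and adjusted p = 4.24e-06 in limma), and was at 0.656 of it with ZC3H7A (log2 fold change -0.61, SE 0.0785). In DD, LATS1 was 2534, 2492 and 2684, against 2267, 1920.4 and 2229 in Parental. All DD libraries were higher and LATS1 rose 1.20-fold (log2 fold change 0.27 with an SE of 0.079 and adjusted p = 0.0238 in limma). That call was lost when any 1 of the 3 DD libraries or Parental replicate 2 was left out (limma adjusted p between 0.0504 and 0.103).

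LATS2, the kinase gene that YAP induces, was 478, 497 and 469 with ZC3H7A, 479, 511 and 512 with ZC3H7B and 435, 448 and 428 in the control. Both overexpressions were slightly above the control, by 0.14 on the log2 scale with ZC3H7A (SE 0.0537), while with ZC3H7B LATS2 rose 1.14-fold (log2 fold change 0.20 with an SE of 0.0537 and adjusted p = 0.00621 in limma). In DD it was 436, 459.6 and 466, against 659, 712 and 708 in Parental. Every DD library was well below every Parental library. LATS2 fell to 0.655 of its Parental level (log2 fold change -0.61 with an SE of 0.0904 and adjusted p = 4.21e-04 in limma), the only member of the 10 called lower in DD.

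The transcripts read as YAP and TEAD output were CTGF and CYR61. CYR61 was 387, 348 and 368 with ZC3H7A, 414, 433 and 453 with ZC3H7B and 429, 452 and 415 in the control. ZC3H7A lay below the control (log2 fold change -0.23, SE 0.0629), whereas ZC3H7B overlapped with it (log2 fold change 0.01, 95% interval -0.13 to 0.14, limma adjusted p = 0.945). In DD, CYR61 was 875, 924 and 954, against 522, 542 and 525 in Parental. The groups were far apart relative to their spread. CYR61 rose 1.73-fold in DD (log2 fold change 0.79 with an SE of 0.0843 and adjusted p = 3.86e-05 in limma), the largest fold change and the lowest adjusted p of the 10 genes in that comparison.

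CTGF, whose promoter held the motif 3 times, was the least abundant member. It was 78.9, 72.3 and 73.4 with ZC3H7A, 60.2, 61.8 and 63.4 with ZC3H7B and 74.7, 83.0 and 78.3 in the control. The ZC3H7B libraries were all lower than the control and the ZC3H7A libraries overlapped with it (log2 fold change -0.07, SE 0.0892). CTGF fell with ZC3H7B (log2 fold change -0.34 with an SE of 0.0892 and adjusted p = 0.00445 in limma), and that call was lost with DESeq2 (adjusted p = 0.0636). In DD it was 125, 111 and 114, against 75.5, 113 and 69.7 in Parental, from 167 and 112 reads over the groups. Parental replicate 2 lay within the DD range, and the difference did not pass (log2 fold change 0.46, 95% interval 0.0065 to 0.92, limma adjusted p = 0.118), though it did without that library (log2 fold change 0.68, limma adjusted p = 0.0338).

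**Figure D3:**
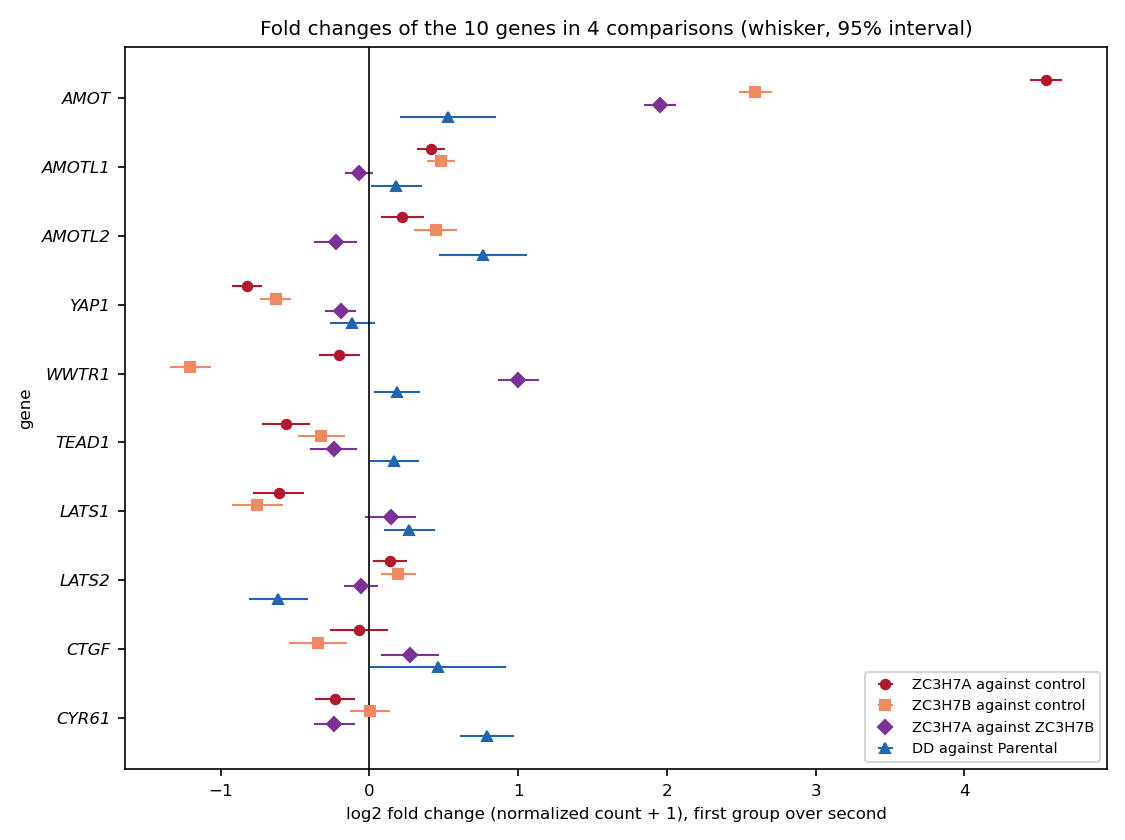
Log2 fold changes (horizontal axis, first group over second) of the 10 genes (rows) in 4 comparisons (symbols), with whiskers for the 95% interval from limma, not adjusted for multiple testing. AMOT reaches 4.55 with ZC3H7A and 2.59 with ZC3H7B; YAP1 and LATS1 are below 0 in both overexpressions, and LATS2 is below 0 in DD.

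All 10 genes passed the filter on low values in every comparison. Against the control, 9 of the 10 were called with ZC3H7A, 4 higher and 5 lower, where 75.9% of all 17673 tested genes were called, 34.7% higher and 41.2% lower; nothing is read from this count, since the high AMOT of this comparison was known when the genes were chosen. Their libraries did not overlap with the control for 9 of the 10, beside 77.9% of all tested genes, 35.7% wholly above and 42.2% wholly below. With ZC3H7B, 9 of 10 were called, 4 higher and 5 lower, beside 69.6% of all tested genes, 32.0% higher and 37.6% lower, and 9 of 10 did not overlap with the control, beside 77.1%, 35.3% wholly above and 41.8% wholly below. The median log2 fold change of the 10 was -0.14 with ZC3H7A, beside -0.07 over all tested genes, and -0.16 with ZC3H7B, beside -0.06. Between the overexpressions, 7 of 10 were called, 3 higher and 4 lower with ZC3H7A, beside a background of 44.3%, 23.9% higher and 20.4% lower. Of the 10, 7 did not overlap between these groups, beside 49.2%, 26.6% wholly above and 22.5% wholly below. Nothing is read from these counts either, since this comparison also holds the ZC3H7A libraries. In DD against Parental, 5 of 10 were called, 4 higher and 1 lower, beside 29.5% of 18494 tested genes, 14.7% higher and 14.8% lower, with a median of 0.23 beside 0.01. The libraries did not overlap for 6 of the 10 genes in DD against Parental, beside 43.0% of all tested genes, 21.6% wholly above and 21.5% wholly below. The comparisons of ZC3H7A and of ZC3H7B with the control share their control libraries, so their values stand side by side above and are not counted as 2 pieces of evidence.

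The members also differed in how much they varied within a group. Their coefficients of variation had a median of 5.04% with ZC3H7A and 3.20% with ZC3H7B, while in the control they ran from 0.487% to 7.10%. The median was 4.14% in DD and 9.08% in Parental. With ZC3H7A, LATS1 and TEAD1 varied most, at 13.0% and 12.2%, and replicate 3 was the highest for both. AMOT varied least there, at 0.818%. In Parental, CTGF at 27.5% and AMOT at 26.5% varied most, and CYR61 least at 2.09%.

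The rest of the pathway was described through 5 lists of 75 genes in all, none of them tested as a set. Most genes given with values were picked for a low adjusted p in these same comparisons. Their p-values are therefore not independent of the choice. Their counts stand beside the shares of all tested genes called higher and lower, which were 34.7% and 41.2% with ZC3H7A, 32.0% and 37.6% with ZC3H7B, 23.9% and 20.4% between the overexpressions and 14.7% and 14.8% in DD. The upstream list held the core kinases STK3 and STK4 (MST2 and MST1), their adaptors SAV1, MOB1A and MOB1B, the junction proteins NF2, WWC1, WWC2 and FRMD6, the TAOK and MAP4K kinases, the cadherins FAT4 and DCHS1 and the LIM proteins AJUBA, LIMD1 and WTIP, which bind LATS. With ZC3H7A, 9 of its 22 genes rose, 8 fell and 5 missed the threshold. WTIP averaged 1657 ± 61.7 with ZC3H7A, against 691 ± 18.8 in the control (SD, n = 3 each), a rise of 1.26 on the log2 scale (SE 0.0575). LIMD1 rose by 0.83 (SE 0.0444) and DCHS1 by 0.98 (SE 0.0939), and FAT4 fell by 0.95 (SE 0.0733). With ZC3H7B, 6 rose, 9 fell and 7 did not pass. MOB1B fell in both, by a log2 difference of -1.23 with ZC3H7A and -1.54 with ZC3H7B (SE 0.149 each), and so did its relative MOB1A, by -0.72 with ZC3H7A and -0.78 with ZC3H7B (SE 0.0727 each). With ZC3H7B, FAT4 fell to 0.501 of the control (SE 0.0733 on the log2 scale) and LIMD1 rose by 0.43 (SE 0.0444).

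WTIP, DCHS1, LIMD1 and WWC2 differed most between the overexpressions in that list. WTIP averaged 1657 with ZC3H7A and 731 with ZC3H7B (log2 fold change 1.18, SE 0.0575). WWC2, a relative of the scaffold KIBRA, averaged 1890 ± 200.4 with ZC3H7A and 1354 ± 54.3 with ZC3H7B (SD, n = 3 each). Its log2 fold change was 0.48 (SE 0.068). In all, 4 of the 22 were higher with ZC3H7A, 1 was lower and 17 did not pass. In DD against Parental, 4 rose, 4 fell and 14 did not pass. WWC2 fell to 1035 ± 101 in DD, against 2138 ± 287 in Parental (log2 fold change -1.04 with an SE of 0.104 and adjusted p = 2.41e-05 in limma; SD, n = 3 each). WTIP rose by 0.65 (SE 0.106) and TNIK, a MAP4K-family kinase, by 0.52 (SE 0.0958), and LIMD1 fell by 0.32 (SE 0.0726).

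STRIPAK, a phosphatase complex that removes activating phosphates from MST kinases, had 12 measured members. With ZC3H7A, 3 rose, 8 fell and 1 did not pass, and the median log2 fold change was -0.52, beside -0.07 over all tested genes. With ZC3H7B, 3 rose, 7 fell and 2 did not pass, with a median of -0.61 beside -0.06. The phosphatase scaffold PPP2R1A and the striatin STRN4 were the larger rises, with log2 fold changes of 0.95 (SE 0.0632) and 0.72 (SE 0.0412) with ZC3H7A and of 0.89 (SE 0.0632) and 0.74 (SE 0.0412) with ZC3H7B. FGFR1OP2, STRN and MOB4 fell in both overexpressions. The log2 fold change of FGFR1OP2 was -1.11 with ZC3H7A and -0.91 with ZC3H7B (SE 0.0976 each), that of STRN -0.56 with ZC3H7A and -1.11 with ZC3H7B (SE 0.103 each), and that of MOB4 -0.75 with ZC3H7A and -1.05 with ZC3H7B (SE 0.102 each). In DD, 1 of 12 was called, STRIP2, which rose by 0.35 (SE 0.0883, limma adjusted p = 0.0103), and the median was 0.08. That call was lost without DD replicate 1 (limma adjusted p = 0.0552).

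Unlike TEAD1, the other 3 TEAD genes rose in both overexpressions. TEAD2 averaged 749 ± 65.4 with ZC3H7A and 553 ± 37.9 with ZC3H7B, against 342 ± 10.6 in the control (SD, n = 3 each). Its log2 fold change was 1.13 with ZC3H7A (SE 0.0728) and 0.69 with ZC3H7B (SE 0.0728, limma adjusted p = 4.52e-06). TEAD4 rose by 0.85 with ZC3H7A and 0.75 with ZC3H7B (SE 0.0615 each), and TEAD3 by 0.64 with ZC3H7A and 0.45 with ZC3H7B (SE 0.0652 each). In DD, TEAD4 fell by 0.35 (SE 0.0872) and TEAD2 fell by 0.34 (SE 0.0855), while TEAD3 rose by 0.41 (SE 0.113). Each of these calls was lost in limma with 1 library left out: TEAD4 without DD replicate 3 (adjusted p = 0.0535), TEAD2 without DD replicate 1 or Parental replicate 2 (adjusted p = 0.0564 and 0.0536), and TEAD3 without DD replicate 1, DD replicate 2 or Parental replicate 2 (adjusted p = 0.0734, 0.0662 and 0.069). Of the VGLL genes, whose proteins bind TEADs, VGLL3 fell in both overexpressions, by a log2 difference of -0.44 with ZC3H7A and -0.99 with ZC3H7B (SE 0.113 each). VGLL4 fell with ZC3H7A (-0.36, SE 0.0541), and its log2 fold change with ZC3H7B was -0.03 (SE 0.0541, limma adjusted p = 0.624). VGLL1 did not pass the filter on low values in any comparison.

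Another list held genes for partners of angiomotins and for their turnover. It named polarity proteins of the Crumbs and PATJ complexes, and the tankyrases and RNF146, which mark angiomotins for destruction. NEDD4-family ligases, the deubiquitinase USP9X, MAGI1 and ARHGAP17 made up the rest. With ZC3H7A, 4 of 15 tested genes rose, 10 fell and 1 missed the threshold (median log2 fold change -0.36, beside -0.07 over all tested genes). With ZC3H7B 4 rose, 9 fell and 2 did not pass (median -0.33, beside -0.06). NEDD4, a ubiquitin ligase for AMOT, averaged 469 ± 75.7 with ZC3H7A and 448 ± 42.3 with ZC3H7B, against 1061 ± 48.3 in the control (SD, n = 3 each). LIN7C, a polarity scaffold, fell by 0.90 (SE 0.0995) with ZC3H7A and by 1.12 (SE 0.0995) with ZC3H7B. INADL, the older symbol of PATJ, fell by 0.27 with ZC3H7A and by 0.50 with ZC3H7B (SE 0.0451 each), and LIN7B rose by 1.01 with ZC3H7A and 0.66 with ZC3H7B (SE 0.0859 each). In DD, 1 of 16 was called: TNKS2, a tankyrase, rose by 0.33 (SE 0.0656, limma adjusted p = 0.00268).

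Other targets came from a published signature of YAP and TAZ target genes, of which 18 are not among the 10 members. With ZC3H7A, 4 of 16 tested targets rose, 10 fell and 2 did not pass, with a median log2 fold change of -0.20. FOXF2 and FJX1 rose by 0.66 (SE 0.0537) and 0.51 (SE 0.0495), and AXL, a receptor kinase, fell to 11.3 ± 1.70, against 33.7 ± 5.74 in the control (SD, n = 3 each; log2 fold change -1.49). F3, tissue factor, fell by 0.74 (SE 0.0867) with ZC3H7A and by 0.83 (SE 0.0867) with ZC3H7B. With ZC3H7B, 4 rose, 8 fell and 4 did not pass, with a median of -0.24, and CRIM1 had the lowest adjusted p (-0.94, SE 0.0481, limma adjusted p = 1.94e-08), with a log2 fold change of -0.15 with ZC3H7A. In DD, 2 of 15 tested targets rose, 3 fell and 10 did not pass, with a median of -0.20 beside 0.01 over all tested genes. FJX1 fell to 843 ± 45.3 in DD, against 1603 ± 66.6 in Parental (log2 fold change -0.93 with an SE of 0.0783 and adjusted p = 6.69e-06 in limma; SD, n = 3 each), ARHGEF17 fell by 0.65 (SE 0.141) and FOXF2 rose by 0.35 (SE 0.0748). The second rise was MYOF, named after its values were seen, with 94 reads in DD and 40 in Parental (log2 fold change 1.09 with an SE of 0.252 and adjusted p = 0.00698 in limma).

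**Figure D4:**
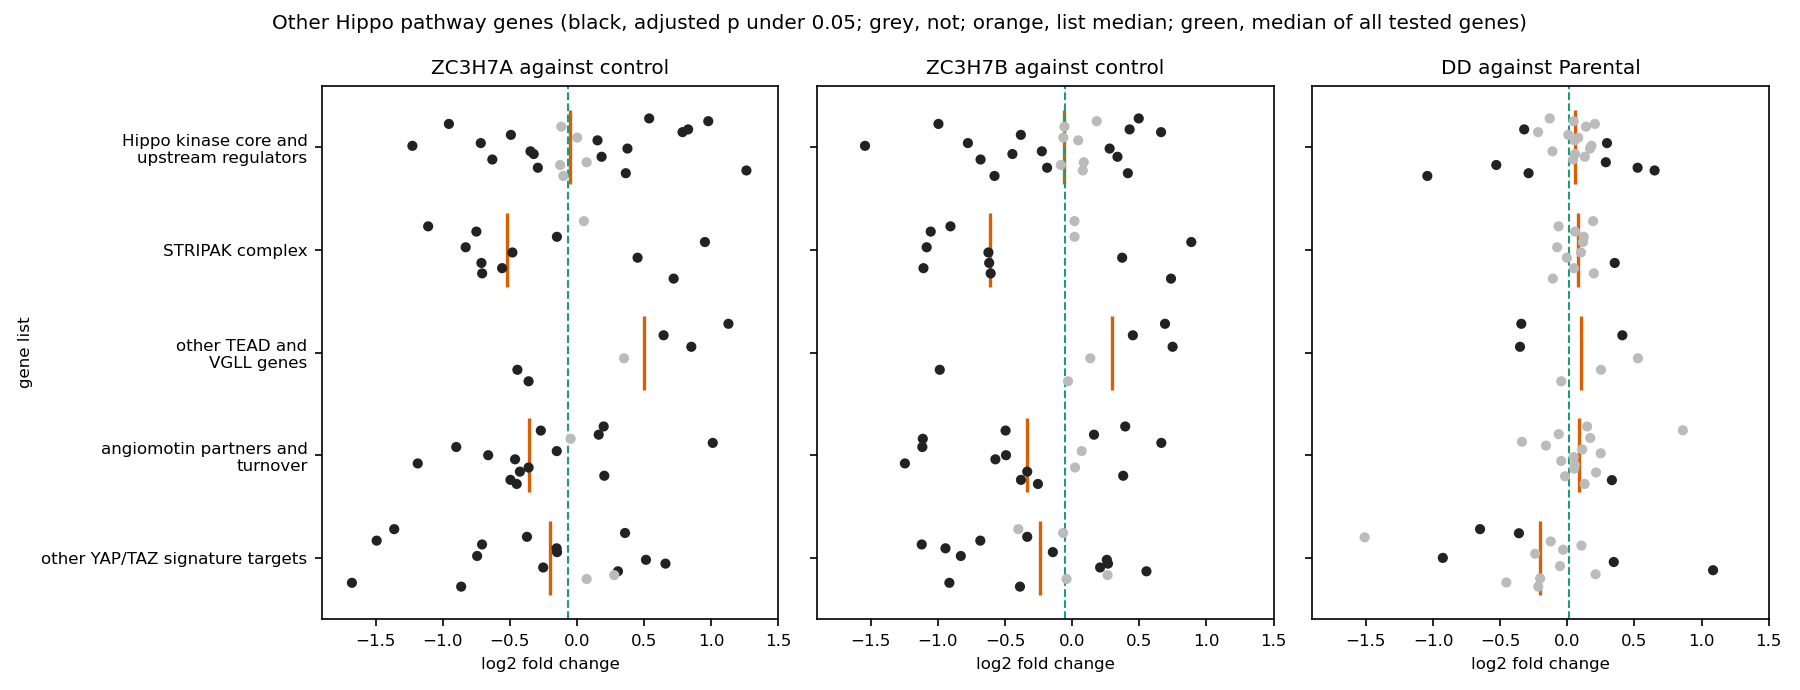
Log2 fold changes (horizontal axes) of the tested genes of 5 other Hippo pathway lists (rows) in 3 comparisons (panels), black where the adjusted p is under 0.05 and grey otherwise, with the list median (orange) and the median of all tested genes (green, dashed). The STRIPAK median is -0.52 with ZC3H7A and -0.61 with ZC3H7B, and 0.08 in DD.

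Over the 5 lists together, 23 of 71 tested genes rose and 38 fell with ZC3H7A, 85.9% called beside a background of 75.9%. With ZC3H7B, 20 rose and 34 fell, 76.1% called beside 69.6%. Between the overexpressions, 17 were higher and 13 lower with ZC3H7A, 42.3% called beside 44.3%. In DD against Parental, 9 rose and 9 fell, 25.4% called beside 29.5%. The lists were chosen with earlier results of these data known, and these shares are counts only.

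The genes whose pattern was most like that of AMOT over the 9 overexpression libraries were NALCN, ZNF16, UNC13A, BOLA3 and NDRG1, with Pearson r between 0.9963 and 0.9997 on the log2 scale. These 9 points are 3 groups of 3 libraries, so r mostly reflects the order and spacing of 3 group means. It does not measure the size of a change. With ZC3H7A against the control, log2 fold changes were 6.61 for NALCN, 1.16 for ZNF16 and 2.17 for UNC13A. They were 0.33 for BOLA3 and 1.53 for NDRG1, beside 4.55 for AMOT. Of 12653 genes with a mean of at least 100 in any of the 3 groups, 2573 had r over 0.9 and 92 over 0.99. The sodium leak channel NALCN came closest, with means of 278 with ZC3H7A, 39.9 with ZC3H7B and 1.87 in the control. NALCN reached 100 only with ZC3H7A, the group where AMOT was also highest, so the filter itself favoured this pattern. Over the 6 depletion libraries, r with AMOT was 0.637 for NALCN, 0.898 for ZNF16, 0.778 for UNC13A, -0.85 for BOLA3 and -0.693 for NDRG1.

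AMOT (ENSG00000126016) lies on the minus strand of chromosome X. Of the 3 protein-coding neighbours on either side in GENCODE 29, TRPC5OS, ZCCHC16 and LHFPL1 on one side and HTR2C on the other had at most 3 reads over any group. IL13RA2 had at most 25. LRCH2, the outermost neighbour, averaged 319 ± 68.8 with ZC3H7A and 289 ± 23.7 with ZC3H7B, against 767 ± 36.3 in the control (SD, n = 3 each). It fell, by a log2 difference of -1.28 with ZC3H7A (SE 0.119) and -1.41 with ZC3H7B (SE 0.119), the opposite direction to AMOT. In DD, LRCH2 did not pass the test, at 332 ± 23.3 against 352 ± 40.8 in Parental (limma adjusted p = 0.663).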

How the data were processed

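RNA-seq libraries were made from polyA RNA of 15 samples; the overexpression libraries came from 50 µg of a hypotonic polysome lysate with a TruSeq RNA v2 kit, and a company made the Parental and DD libraries with its own protocol, per the labels' protocols. The authors deposited normalized counts, treated here as a signal. STAR 2.7.10b, HTSeq, DESeq2 and hg19 are named, per the submitters' processing notes, without role or settings; their gene annotation is not stated. In each library, 100% of the deposited signal values lay within 0.01 of a whole multiple of one step, so whole reads were recovered.

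Tests used log2(value + 1) for genes that reached 10 in 3 or more libraries of a fit, with limma 3.58.1 in R 4.3.3 (empirical Bayes, mean-variance trend) and Benjamini-Hochberg adjustment over all tested genes, called under 0.05, two-sided. The 9 overexpression libraries shared a fit and the 6 depletion libraries had their own. Intervals are 95% intervals from limma's moderated t distribution, per gene and not adjusted. Read totals limit precision through counting error only. Alternatives were other pseudocounts and filters, TMM rescaling, edgeR 4.0.16 and DESeq2 1.42.0 on recovered reads, a replicate block, fits on 2 groups and leaving out each library.

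The members and lists were chosen with earlier results of these data known. Of each list, up to 4 tested genes with the lowest adjusted p per comparison could be named, besides all 10 members, the 5 genes most like AMOT and its 3 neighbours on either side. Exon lengths, gene order and Ensembl IDs are from GENCODE 29 (GRCh38), not the build of the authors, and promoters from RefSeq (GRCh38.p14). PECAM1 had no row matched by name. The summed level of the leukocyte marker list rests mostly on 1 gene that is not reported here.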

Additional observations from a re-analysis of the deposited data

How the results depend on the processing

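The 10 genes kept their direction under every alternative and every left-out library, except CYR61 with ZC3H7B, whose log2 fold change of 0.01 lay between -0.028 and 0.038 with 1 library left out (-0.028 without ZC3H7B replicate 3 and -0.023 without control replicate 3). AMOTL2, CYR61 and LATS2 stayed called in DD throughout, with adjusted p up to 0.0141. With 1 library left out, the number of the 10 called higher in DD was 2 to 6 (2 without DD replicate 1 or replicate 2), and that of all genes called higher was 1561 to 3564, the lowest without DD replicate 1. With DESeq2, 2034 genes were called higher and 2435 lower in DD. Against the control, LATS2 with ZC3H7A was called in 9 of 15 alternatives, and WWTR1 with ZC3H7A was not called with DESeq2. Between the overexpressions, the call of CTGF was lost in 6 of 15 alternatives, that of TEAD1 in 4 and that of AMOTL2 in 1. The cause was not tested. The scalings moved the median of all genes by less than 0.1 on the log2 scale. Between the overexpressions, more genes were called higher than lower with ZC3H7A (4232 and 3600), but fewer with TMM rescaling (3723 and 4068) and edgeR (3744 and 3961). With ZC3H7B against the control, 5648 were called higher and 6647 lower, against 6341 and 5905 with TMM rescaling, 6366 and 6047 with edgeR and 5948 and 5719 with DESeq2, and with ZC3H7A against the control 6135 and 7277, against 6370 and 6359 with DESeq2.

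Replicate numbers were not taken to pair the samples, since not every pair correlated at over 0.1: same-numbered deviations from the group means correlated at 0.156, 0.023 and 0.35 between ZC3H7A and ZC3H7B and at -0.0717 to 0.0422 elsewhere. A replicate block left the counts of members called in all 4 comparisons as they were, for example 4 higher and 1 lower in DD, and gave 2168 genes called higher and 2374 lower there.

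The depletion libraries are shallower than the others, and CTGF had 167 reads in DD and 112 in Parental.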
